A study of Sus scrofa with 8 samples.

Results

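The genes described here are the chemokines, interleukins, TNF superfamily ligands, colony stimulating factors and LIF, with the receptors of the first 3 families, in porcine pancreatic ductal organoids (PPDO), epithelial cultures grown from pig pancreas in a matrix gel. Members were chosen by gene symbol alone, with rows of one gene summed. The rule used no measured value, but members and lists were set with earlier results of these data known. The rule found 136 of 30282 pig genes: 24 chemokine ligands, 13 chemokine receptors, 34 interleukins, 34 interleukin receptors, 3 interleukin binding proteins or enzymes that carry an IL symbol (IL18BP, IL22RA2 and IL4I1), 11 TNF superfamily ligands, 13 TNF superfamily receptors, and the 3 colony stimulating factors with LIF. They were read as 27 ligands and 32 receptors known from epithelia, set apart from 77 other members that are mostly products or receptors of immune cells.

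Bulk RNA-Seq was performed on 4 PPDO lines from German landrace pigs, namely 1 embryonic line (Em), 2 early postnatal lines (EPN1 and EPN2) and 1 late postnatal line (LPN), each cultured for a week in complete medium (labelled Control) and in differentiation medium (labelled Treated). Complete medium held WNT3a, R-spondin1, noggin, EGF, FGF10, gastrin and prostaglandin E2, and differentiation medium lacked them. Both media held N2, B27 without vitamin A, nicotinamide, N-acetyl-L-cysteine, the TGF-beta receptor inhibitor A83-01 and the ROCK inhibitor Y-27632, so both groups were grown under these inhibitors. The pigs were wild type or carried an INS-eGFP reporter, and the genotype behind each line is not given in the sources used here. One label names an endocrine induction medium for all 8 samples, and the sample titles separate the groups. Em and LPN were 1 line each, so the stage of a line and the animal it came from cannot be told apart.

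Each library held 40553593 to 47910657 counts, and 3 counts corresponded to 0.0626 to 0.0740 CPM, the count of a gene scaled to a common library total. Libraries of the same line varied together, so a fit with the line as block is given where it changed a call. The ductal label was borne out by EPCAM (228 to 640 CPM) and KRT7, although EPN2 in differentiation medium had the lowest KRT7 (522 CPM) and KRT8 (425 CPM) of the 8 libraries. Several defining markers of other cell types were at or near 0: PTPRC, the pan-leukocyte gene, ranged from 0 to 2.16 CPM, CD3D, CD3E, CD163 and TYROBP had at most 3 counts in every library, and DCN reached 0.187 CPM. Other markers were abundant, and the stromal list summed to 243 to 738 CPM over the 8 libraries. Summed CPM of the 13 immune markers ranged from 38.8 to 64.0 in complete and from 14.9 to 107 in differentiation medium, mostly from CD14 and CD68, and none of the 5 tested passed between media (edgeR, adjusted p of 0.0742 or above, and ITGAM as lower with the block), while DESeq2 called 3 of the 13, among them CD4 as higher and ITGAM as lower. Of all genes given an adjusted p, DESeq2 called 18.5%. With the block edgeR called 20.0% of the tested immune markers, beside 19.9% of all genes. Levels are CPM after TMM scaling, given in the order Em, LPN, EPN1 and EPN2. They are not corrected for transcript length and were not compared between genes.

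Chemokines are small secreted proteins that direct leukocyte migration through G protein-coupled receptors, and epithelia release several of them to the tissue beneath. Interleukins act through paired receptor chains, of which one is often specific and the other shared among ligands. TNF superfamily ligands are mostly membrane-bound trimers whose receptors feed NF-kB or death signalling. In duct epithelium the receptors of these families let the cells respond to leukocytes, and the ligands let damaged or infected epithelium call them.

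Of the 136 members, 68 passed the filter on low counts, 28 others were above 3 counts in at least 1 library, 40 had at most 3 counts in every library, and 12 of those 40 had no count at all. By list, 21 of 27 epithelial ligands, 26 of 32 epithelial receptors and 21 of 77 other members were tested. The lists were drawn up with earlier results of these data known, so these numbers are no test of them. A further 27 epithelial symbols, among them CXCL1, CXCL5, CXCR2, CCL20, IL1B, IL1RN and TNFSF10, had no row under that symbol and were not analysed here.

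Between media, 5 of the 68 tested members passed an adjusted p of 0.05 (edgeR's quasi-likelihood test, Benjamini-Hochberg over 14475 genes), 2 higher and 3 lower in differentiation medium. This was 7.35% of the tested members, beside 6.97% of all genes tested (2.87% higher and 4.1% lower). With the line as block, 14 members passed, 7 higher and 7 lower, which was 20.6% beside 19.9% of all genes (9.48% higher and 10.4% lower), and these 14 included the first 5. DESeq2 called 14 members without and 30 with the block, the 14 including the first 5, beside 18.5% and 33.8% of all genes given an adjusted p. In edgeR the family as a whole was therefore called about as often as the background. The number of members given an adjusted p by DESeq2 is not shown here, so its calls have no matching share. The median log2 fold change was 0.10 over the tested members and 0.01 over all genes. All 4 lines were higher in differentiation medium for 14 members (20.6%, beside 23.9% of all genes) and lower for 15 (22.1%, beside 24.2%). No library of one medium overlapped the other for 6 members on the higher side (8.82%, beside 8.82% of all genes) and 3 on the lower side (4.41%, beside 9.98%). In bulk samples, fewer cells expressing a gene and less RNA of it per cell cannot be told apart.

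**Figure D1:**
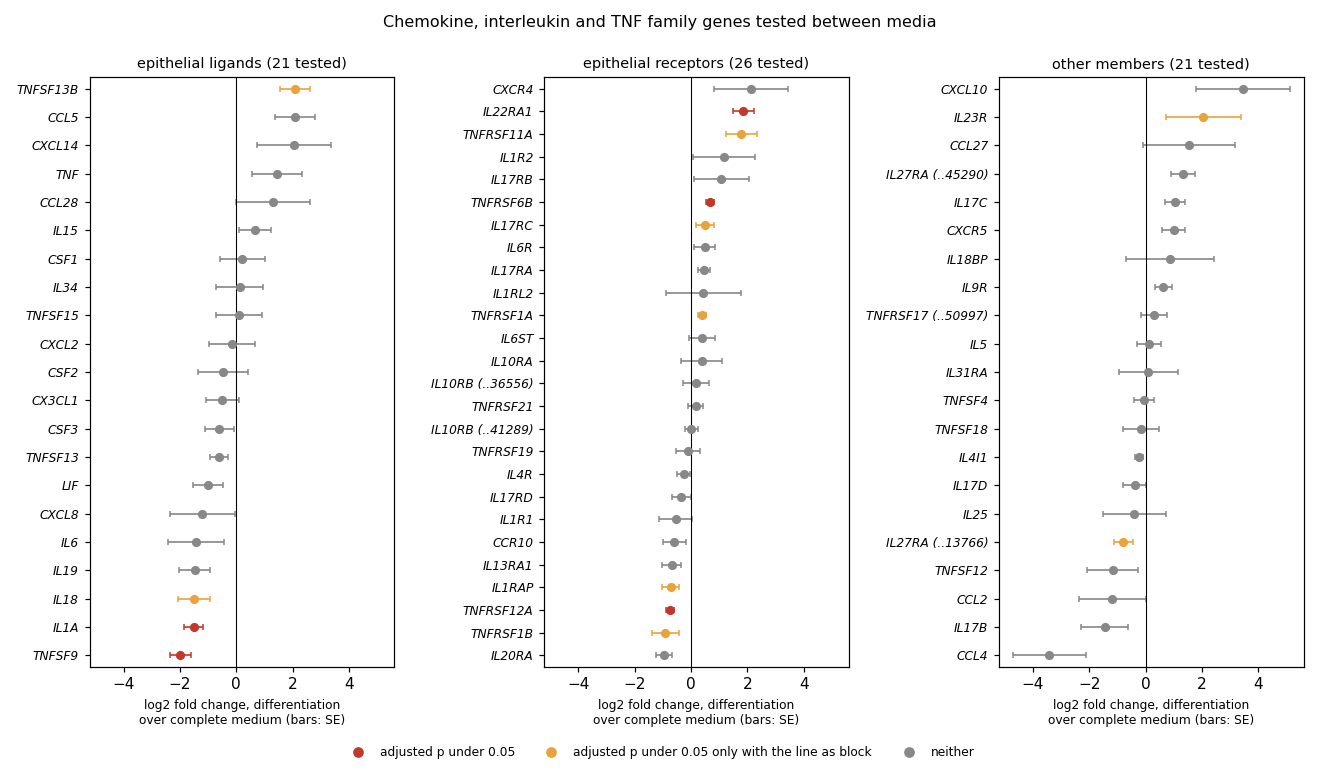
Log2 fold change of each tested member, differentiation over complete medium, with its standard error from edgeR (4 libraries per medium), for 21 epithelial ligands, 26 epithelial receptors and 21 other members. Red points passed an adjusted p of 0.05, orange points did so only with the line as block, and the widest bars belong to chemokines and low-count genes such as CXCL10 and CCL27.

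Among the ligands, both that passed fell. TNFSF9 (ENSSSCG00000022370), also called 4-1BB ligand, a costimulator of T cells, lies at chr2:72578811-72582834 in RefSeq's Sscrofa11.1 annotation, matched by symbol as for each position below. TNFSF9 measured 38.4, 35.6, 38.7 and 47.7 CPM in complete medium and 17.4, 5.15, 6.97 and 10.9 CPM in differentiation medium. Every line was lower in differentiation medium and the media did not overlap. The mean went from 40.1 ± 5.25 to 10.1 ± 5.44 CPM (SD, n = 4), a log2 fold change of -1.99 ± 0.37 (SE, edgeR adjusted p = 0.0252). Its receptor TNFRSF9 reached at most 28 counts in any library and was not tested.

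IL1A (ENSSSCG00000008090, chr3:43718320-43731668), an epithelial alarm signal of the IL-1 family, measured 40.9, 33.9, 33.7 and 21.7 CPM in complete medium and 7.50, 16.0, 6.74 and 15.2 CPM in differentiation medium. The media did not overlap, with the narrowest gap in EPN2. The log2 fold change was -1.52 ± 0.35 (SE, edgeR adjusted p = 0.0423). IL18, another IL-1 family cytokine held as a precursor in epithelium, measured 302, 442, 518 and 152 CPM in complete medium and 134, 140, 198 and 28.6 CPM in differentiation medium. IL18 was lower in differentiation medium in all 4 lines. The media overlapped because EPN1 in differentiation medium (198 CPM) lay above EPN2 in complete medium (152 CPM). Its log2 fold change was -1.50 ± 0.58 (SE, edgeR adjusted p = 0.147) without and -1.65 ± 0.23 (adjusted p = 0.0146) with the line as block. The IL-18 receptor chain IL18R1 stayed under 2 CPM and was not tested.

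The receptors and regulators of the IL-1 family did not move as one. IL1RAP, the chain shared by the IL-1, IL-33 and IL-36 receptors, measured 32.3, 51.9, 26.1 and 48.4 CPM in complete medium and 17.5, 25.5, 18.0 and 35.2 CPM in differentiation medium. It was lower in every line and passed only with the line as block (log2 fold change -0.72 ± 0.14, SE, edgeR adjusted p = 0.0249). The signalling receptor IL1R1 measured 227, 39.9, 58.1 and 72.3 CPM in complete medium and 124, 50.4, 52.4 and 47.6 CPM in differentiation medium. Em was the highest line in both media, and the log2 fold change of -0.53 ± 0.58 (SE, edgeR adjusted p = 0.588) did not pass. Without Em in complete medium that value became 0.29. The decoy receptor IL1R2 was higher in differentiation medium in Em, LPN and EPN1 and level in EPN2, with 7 counts in each medium. It did not pass in edgeR (log2 fold change 1.18 ± 1.09, SE, edgeR adjusted p = 0.516, and 0.0933 with the block, but 0.0351 by DESeq2 with the block).

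TNFSF13B, or BAFF, a survival factor for B cells, had 3, 5, 2 and 11 counts in complete medium and 27, 24, 19 and 26 counts in differentiation medium. The media did not overlap, at levels of 0.607 CPM or less. Its log2 fold change was 2.09 ± 0.54 (SE, edgeR adjusted p = 0.0562) and passed with the line as block (2.24 ± 0.47, adjusted p = 0.0312). TNF itself measured 1.69, 0.536, 0.192 and 0.429 CPM in complete medium and 3.61, 2.17, 1.76 and 0.233 CPM in differentiation medium. TNF was thus higher in 3 of 4 lines and lower in EPN2 (edgeR adjusted p = 0.319). LIF, a cytokine of the IL-6 family, was lower in all 4 lines, at 12.9, 36.3, 12.6 and 14.5 CPM against 8.99, 15.6, 10.2 and 3.34 CPM (edgeR adjusted p = 0.256, and 0.0801 with the block). TNF and LIF, the chemokines below other than CXCL8 and CCL27, and the partner ligands and receptors given beside a called member were chosen after their values were seen.

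Among the receptors, IL22RA1 (ENSSSCG00000038848, chr6:81867849-81885017) rose the most of the members called. It is the specific chain of the IL-22 receptor, which is carried by epithelia and not by leukocytes. IL22RA1 measured 38.2, 14.9, 32.5 and 41.7 CPM in complete medium and 101, 106, 72.2 and 183 CPM in differentiation medium. Every library in differentiation medium was above every library in complete medium, and LPN went from the lowest of its medium to the second highest. The mean went from 31.8 ± 11.9 to 116 ± 47.1 CPM (SD, n = 4), a log2 fold change of 1.86 ± 0.38 (SE, edgeR adjusted p = 0.0335).

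IL10RB, the chain that pairs with IL22RA1, is carried by a pair of identifiers. The one that the gene name table also calls IL10RB (ENSSSCG00000041289) measured 44.9, 35.9, 47.9 and 36.0 CPM in complete medium and 50.3, 45.2, 45.4 and 25.4 CPM in differentiation medium, with a log2 fold change of 0.01 ± 0.22 (SE, edgeR adjusted p = 0.973). The media overlapped and the lines went in both directions. The other (ENSSSCG00000036556) is named IFNAR2 in that table, so its identity is uncertain. IL20RA, a chain of the receptors for IL-19, IL-20 and IL-24, was lower in 3 of 4 lines and did not pass in edgeR (log2 fold change -0.95 ± 0.29, SE, edgeR adjusted p = 0.0847, and 0.0348 by DESeq2). Its ligand IL19 was low, at 0.904 to 3.34 CPM in complete and 0.289 to 1.24 CPM in differentiation medium (edgeR adjusted p = 0.14, and 0.0478 by DESeq2).

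TNFRSF12A (ENSSSCG00000027130, chr3:39166288-39168294), known as Fn14, the receptor for TWEAK, measured 160, 124, 110 and 129 CPM in complete medium and 82.3, 72.8, 91.0 and 66.9 CPM in differentiation medium. All lines were lower in differentiation medium and the media did not overlap, with the smallest step in EPN1. The log2 fold change was -0.74 ± 0.15 (SE, edgeR adjusted p = 0.0336). TWEAK is encoded by TNFSF12, which measured 3.42, 1.02, 4.73 and 2.58 CPM in complete medium and 3.50, 0.250, 1.24 and 0.210 CPM in differentiation medium. TNFSF12 was lower in LPN, EPN1 and EPN2 and level in Em, and did not pass (edgeR adjusted p = 0.441, and 0.0928 with the block).

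The row named TNFRSF6B (ENSSSCG00000036595) measured 67.0, 65.7, 52.0 and 82.6 CPM in complete medium and 119, 94.8, 108 and 106 CPM in differentiation medium. The media did not overlap, and the log2 fold change was 0.68 ± 0.15 (SE, edgeR adjusted p = 0.0417). TNFRSF6B encodes a soluble decoy receptor for FAS ligand, LIGHT and TL1A. The identity of this row is uncertain, because the gene name table gives the same identifier to ZGPAT, a zinc finger protein. In RefSeq TNFRSF6B spans chr17:62635024-62637520, overlaps the end of RTEL1 (chr17:62611844-62636628) and is followed by ZGPAT (chr17:62640988-62652478).

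**Figure D2:**
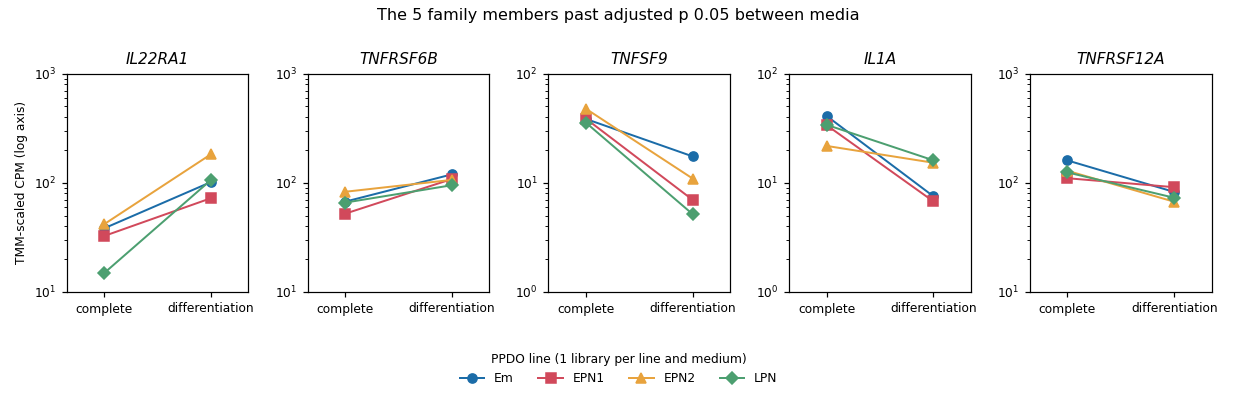
Levels (TMM-scaled CPM, log axis) of the 5 members that passed an adjusted p of 0.05 in complete and differentiation medium, with 1 point per library and a line joining the libraries of each PPDO line. In all 5 genes each of the 4 lines moved in the same direction and the media did not overlap.

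The TNF receptors proper went in opposite directions. TNFRSF1A, the widely expressed receptor with a death domain, measured 81.4, 69.5, 61.6 and 81.1 CPM in complete medium and 96.2, 85.6, 84.3 and 120 CPM in differentiation medium. The media did not overlap, and the log2 fold change of 0.39 passed only with the line as block (SE 0.10, edgeR adjusted p = 0.0466, and 0.15 without the block). TNFRSF1B, the receptor without a death domain, measured 120, 53.0, 105 and 48.5 CPM in complete medium and 75.9, 24.7, 53.3 and 20.5 CPM in differentiation medium. Every line was lower while the lines differed, so the media overlapped, and the call again required the block (log2 fold change -0.99 ± 0.13, SE, edgeR adjusted p = 0.0131, and 0.267 without the block). TNFRSF11A, or RANK, measured 5.80, 2.22, 3.48 and 3.43 CPM in complete medium and 27.1, 8.39, 5.52 and 10.7 CPM in differentiation medium. All 4 lines were higher and only EPN1 in differentiation medium overlapped complete medium (with the block 1.62 ± 0.30, SE, edgeR adjusted p = 0.0239, and 0.084 without it).

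The IL-17 receptor chains IL17RA and IL17RC, which pair to bind IL-17A and IL-17F, were higher in differentiation medium in all 4 lines. IL17RC measured 14.9, 29.9, 23.3 and 33.5 CPM in complete medium and 24.2, 42.3, 28.9 and 47.9 CPM in differentiation medium, and passed with the block (log2 fold change 0.51 ± 0.11, SE, edgeR adjusted p = 0.0334, and 0.328 without it). IL17RA, at 36.8, 27.8, 24.9 and 42.6 CPM against 38.7, 40.9, 41.7 and 60.1 CPM, did not pass in edgeR (adjusted p = 0.219, and 0.0644 with the block, but 0.0140 by DESeq2 with the block). The IL-17 family ligands IL17C and IL17B, which bind other receptor pairs, went apart. IL17C measured 0.721 to 1.43 CPM in complete and 1.63 to 2.88 CPM in differentiation medium, with no overlap (log2 fold change 1.03 ± 0.35, SE, edgeR adjusted p = 0.109, and 0.0145 by DESeq2). IL17B was lower in all 4 lines, at 1.60 to 14.3 CPM against 0.474 to 4.80 CPM (edgeR adjusted p = 0.294, and 0.0582 with the block, but 0.00394 by DESeq2 with the block). IL17C and IL17B, with IL17RA and IL19, were chosen after their values were seen.

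IL23R, best known from T cells and innate lymphocytes, had 0, 12, 9 and 26 counts in complete medium and 1, 57, 17 and 128 counts in differentiation medium. The gene was at or under 1 count in Em and highest in EPN2, and each line had more in differentiation medium (with the block 1.82 ± 0.45 on the log2 scale, SE, edgeR adjusted p = 0.0455, and 0.356 without it). IL27RA (ENSSSCG00000013766), the specific chain of the IL-27 receptor, measured 74.2, 40.9, 52.8 and 52.2 CPM in complete medium and 48.3, 24.3, 37.2 and 16.8 CPM in differentiation medium. It was lower in every line and passed with the block (log2 fold change -0.87 ± 0.21, SE, edgeR adjusted p = 0.0433, and 0.173 without it). A second identifier with that symbol (ENSSSCG00000045290), at 2.04 CPM or less, had higher values in differentiation medium in every line, opposite to the first. With the rows summed by symbol the log2 fold change was -0.74, lower as in the first (edgeR adjusted p = 0.186, without the block).

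**Figure D3:**
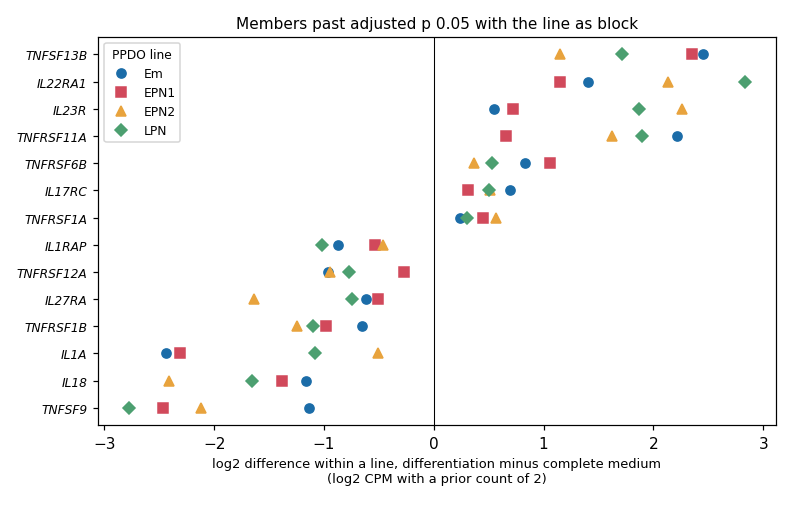
Log2 difference within each PPDO line, differentiation minus complete medium, for the 14 members that passed an adjusted p of 0.05 with the line as block (1 library per line and medium). In every one of the 14 all 4 lines lie on the same side of 0, although the Em point of IL23R rests on 0 and 1 counts. The lines lie closer together for TNFRSF1A and IL17RC than for IL22RA1 and IL1A.

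The remaining receptors with the most counts did not pass in either edgeR fit. IL13RA1, the chain that binds IL-13 and pairs with IL4R, was lower in all 4 lines, at 288, 411, 398 and 320 CPM against 101, 282, 195 and 305 CPM (edgeR adjusted p = 0.219, and 0.0769 with the block). DESeq2 with the block called IL13RA1 (adjusted p = 0.0230). IL6ST, the gp130 chain shared by the IL-6 family, was higher in 3 lines and lower in EPN2, at 380, 135, 145 and 168 CPM against 422, 256, 283 and 124 CPM (edgeR adjusted p = 0.605). TNFRSF21, or DR6, measured 201, 275, 179 and 424 CPM against 337, 277, 302 and 294 CPM (edgeR adjusted p = 0.72), with a lower value in EPN2 and a nearly level one in LPN.

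None of the 10 chemokine ligands tested passed in edgeR, with or without the block, and their spread over lines was wide. At an unadjusted p under 0.05 there were 2, beside 27.3% of all genes. DESeq2 called 3 of all 24, namely CCL5 and CXCL12 as higher and CCL4 as lower. With the block it also called CCL27 and CXCL14 as higher. Of all genes given an adjusted p by DESeq2, 18.5% were called without and 33.8% with the block. The 24 include 3 ligands with no count, which DESeq2 did not test, so these numbers are not on one footing. CXCL8 (ENSSSCG00000008953, chr8:69932646-69935861), which draws neutrophils, measured 497.7, 41.0, 32.5 and 41.2 CPM in complete medium and 124, 71.2, 66.2 and 4.53 CPM in differentiation medium. Em in complete medium stood far above the other libraries, and EPN2 in differentiation medium far below them. CXCL8 was higher in differentiation medium in LPN and EPN1 and lower in Em and EPN2, so its log2 fold change of -1.20 ± 1.15 (SE, edgeR adjusted p = 0.531) became 0.83 without Em in complete medium. Em in complete medium also held 52.3 CPM of CD14 and 2.16 CPM of PTPRC. The other complete medium libraries held at most 5.09 CPM and at most 0.706 CPM of them. CD163 and TYROBP had no count in Em in complete medium. Its summed level of the 13 immune markers was 60.4 CPM, which was not the highest of that medium. LPN was higher (64.0 CPM), and EPN1 and EPN2 were lower (38.8 CPM in EPN2). The part of these markers in the CXCL8 value was not tested.

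CXCL2, a neighbour of CXCL8 in the chemokine cluster (chr8:70157253-70159145) with related action, went the same way line by line, at 182, 34.4, 37.6 and 36.8 CPM in complete medium and 103, 66.3, 84.5 and 8.26 CPM in differentiation medium. Its close paralogues CXCL1 and CXCL3 had no row under those symbols, and whether their reads were counted in the CXCL2 row was not tested. CXCL14 (chr2:137803988-137813118), a chemokine of epithelia, measured 0.173, 7.80, 0.457 and 20.6 CPM in complete medium and 69.1, 19.3, 21.8 and 8.78 CPM in differentiation medium. CXCL14 was higher in differentiation medium in Em, LPN and EPN1 and lower in EPN2 (log2 fold change 2.03 ± 1.32, SE, edgeR adjusted p = 0.351). CCL28, a chemokine of mucosal and glandular epithelia, repeated that split, at 16.3, 2.17, 4.93 and 1.13 CPM against 44.6, 5.28, 11.0 and 0.210 CPM (edgeR adjusted p = 0.551). Its receptor CCR10 stayed under 1 CPM.

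Another wide difference was in CXCL12 (ENSSSCG00000034973, chr14:91516383-91543857), a chemokine usually made by stromal and endothelial cells, which was chosen after its values were seen. CXCL12 had 4, 1, 1 and 2 counts in complete medium and 8582, 1241, 3632 and 1 counts in differentiation medium. Em, LPN and EPN1 in differentiation medium were high and EPN2 was at the level of complete medium, so the media overlapped. The ratio of differentiation to complete medium was 2043 in Em (95% exact interval 798 to 7500), 1063 in LPN (190.4 to 42008) and 3418 in EPN1 (613 to 135037). These intervals cover counting error only, and no ratio is given for EPN2, where both counts were at or under the floor of 3. CXCL12 passed the minimum of the low-count filter in only 3 libraries, fewer than the 4 of a group, and so has no value in the fit used for the other genes. Without the filter its edgeR adjusted p was 0.0362, and with both EPN2 libraries left out it was 0.0162, while leaving out 1 complete medium library gave 0.0551 to 0.101 (fitted log2 fold changes of 10.32 to 11.04 over all these fits, a size that depends on the prior count). DESeq2 gave an adjusted p of 1.81e-11.

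Markers of cells that make CXCL12 were read in the same libraries. Of the 12 stromal markers 5 were tested and none passed in edgeR without the block (2 at an unadjusted p under 0.05). With the block TAGLN passed as higher and PDGFRB as lower, and DESeq2 called PDGFRA, TAGLN and COL3A1 as higher and PDGFRB as lower in differentiation medium. Their summed level ranged from 251 to 482 CPM in complete and from 243 to 738 CPM in differentiation medium, mostly from THY1, TAGLN and VIM. COL3A1 was 5.03 CPM in Em, 0.167 CPM in LPN, 6.06 CPM in EPN1 and 0.0467 CPM in EPN2 in differentiation medium and at most 0.0487 CPM in complete medium, whereas COL1A1 was 1.15 CPM or less, DCN 0.187 CPM or less and LUM 0.758 CPM or less in all 8 libraries. Of the 8 endothelial markers 6 were tested and none passed in edgeR without the block. At an unadjusted p under 0.05 there were 2 (33.3%, beside 27.3% of all genes). ENG passed as lower with the block (16.7% of those tested, beside 19.9% of all genes) and by DESeq2. The summed level of the endothelial markers ranged from 40.4 to 89.3 CPM and from 38.6 to 65.7 CPM, and CDH5 had at most 1 count in every library. The part of these cells in the CXCL12 value was not tested. The CXCL12 receptors went their own way. CXCR4 measured 0.520, 0.195, 0.481 and 1.69 CPM in complete medium and 0.0412, 2.71, 0.611 and 9.45 CPM in differentiation medium (edgeR adjusted p = 0.325), with its highest value in EPN2. The scavenger receptor ACKR3 measured 26.7, 16.6, 38.9 and 8.38 CPM against 14.9, 10.7, 23.2 and 3.34 CPM, lower in every line and called only with the block (edgeR adjusted p = 0.0231, and 0.441 without it).

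**Figure D4:**
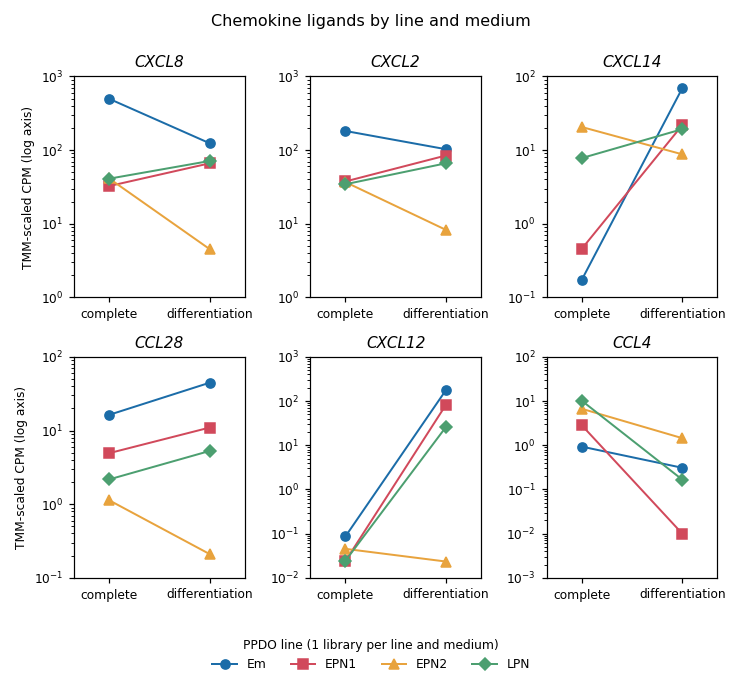
Levels (TMM-scaled CPM, log axis) of 6 chemokine ligands in complete and differentiation medium, 1 point per library with the libraries of a PPDO line joined, and the CCL4 value of 0 in EPN1 drawn at 0.01 CPM. EPN2 is lower in differentiation than in complete medium for CXCL8, CXCL2, CXCL14, CCL28 and CCL4, while CXCL12 rises from 4 counts or fewer to 26 CPM or more in Em, LPN and EPN1.

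CCL5 and CXCL10, which attract T cells, were rare in complete medium. CCL5 measured 0.130, 0.536, 0.553 and 0.746 CPM in complete medium and 2.89, 0.626, 1.24 and 3.62 CPM in differentiation medium, higher in all 4 lines (log2 fold change 2.09 ± 0.70, SE, edgeR adjusted p = 0.106, and 0.112 with the block). CXCL10 had its highest level in Em in differentiation medium (2.80 CPM) and was at 0.397 CPM or less elsewhere. CCL4, a chemokine of macrophages and T cells, measured 0.931, 10.2, 2.84 and 6.69 CPM in complete medium and 0.309, 0.167, 0 and 1.45 CPM in differentiation medium, lower in all 4 lines (log2 fold change -3.42 ± 1.29, SE, edgeR adjusted p = 0.139, and 0.0671 with the block).

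EPN2 in differentiation medium was the lowest of the 4 libraries of its medium for 11 of the 21 epithelial ligands tested (52.4%), beside 33.4% of all genes, and for 9 of the 26 epithelial receptors (34.6%). It was also the highest for 5 ligands (23.8%) and 11 receptors (42.3%), beside 34.8% of all genes. Those low ligands included CXCL8, CXCL2, CXCL14, CCL28, CSF1, LIF, IL18 and TNF. The keratins KRT7 and KRT8 were lowest in the same library, and their part in these values was not tested. Without both EPN2 libraries, 6 members passed between media instead of 5, and 3 were the same genes: IL22RA1, IL1A and TNFRSF6B still passed, TNFSF9 (adjusted p = 0.0592) and TNFRSF12A (adjusted p = 0.0674) did not, and IL18 (adjusted p = 0.0353), TNFSF13B (adjusted p = 0.0378) and CXCL12 did (edgeR).

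The second question was whether lines differed irrespective of medium. In a fit with medium and line, 6 of the 68 tested members passed for line (8.82%, beside 5.14% of all genes). The first was IL34, a ligand of the CSF1 receptor that sustains macrophages, at 6.34, 46.7, 26.0 and 6.03 CPM in complete medium and 7.59, 51.3, 24.3 and 8.85 CPM in differentiation medium (edgeR adjusted p = 0.0126 for line). LPN was highest, EPN1 next, and Em and EPN2 lay close together in both media. CSF2, or GM-CSF, was lowest in Em (0.455 and 0.474 CPM) and highest in EPN2 (8.70 and 4.53 CPM), with LPN and EPN1 at 2.02 to 3.37 CPM (adjusted p = 0.0384 for line). CSF1, the other ligand of the IL34 receptor, showed no such order, at 15.4, 17.3, 3.73 and 16.5 CPM against 38.0, 7.89, 13.2 and 2.24 CPM (adjusted p = 0.585 for line).

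CCL27, a chemokine best known from skin and counted here among the other members, measured 0.195, 0.926, 0.192 and 12.3 CPM in complete medium and 0.330, 14.6, 1.09 and 23.6 CPM in differentiation medium (edgeR adjusted p = 0.0432 for line). EPN2 was highest in both media, and each line was higher in differentiation medium (adjusted p = 0.0711 between media with the block). IL1R2 was highest in Em (2.08 and 5.03 CPM) and lowest in EPN2 (0.158 and 0.163 CPM), with LPN and EPN1 between them and not apart from each other (adjusted p = 0.0319 for line). The remaining genes were IL23R (adjusted p = 0.0375 for line), nearly absent from Em, and TNFRSF1B (adjusted p = 0.0259 for line), where Em and EPN1 lay above LPN and EPN2 in each medium. EPN1 and EPN2, the lines of one stage, were not neighbours in the order of line means for CCL27, TNFRSF1B or IL23R, and were neighbours for IL34 and CSF2. All of these line calls depended on single libraries: between 0 and 9 members passed when 1 library was left out, 0 of them without LPN in complete medium or without EPN1 or LPN in differentiation medium.

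**Figure D5:**
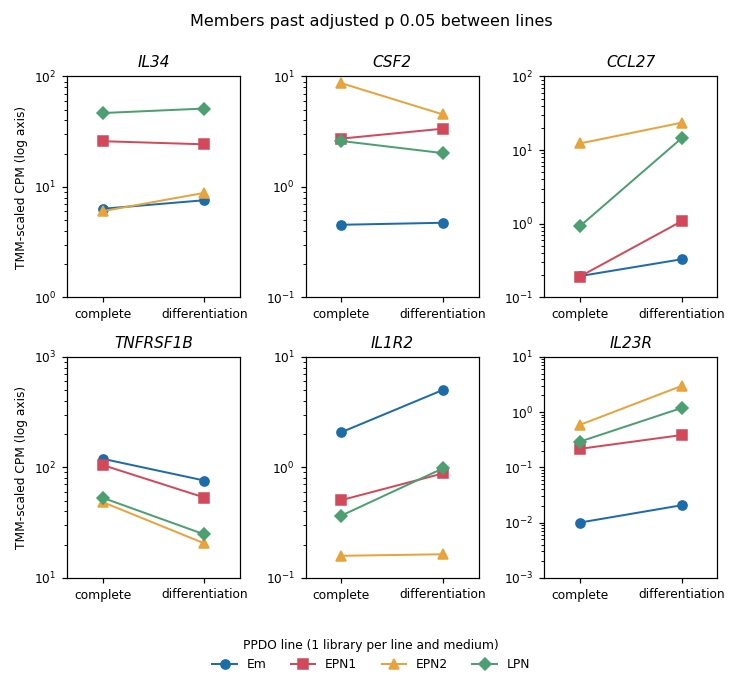
Levels (TMM-scaled CPM, log axis) of the 6 members that passed an adjusted p of 0.05 between lines, 1 point per library with the libraries of a PPDO line joined, and the IL23R value of 0 in Em drawn at 0.01 CPM. In both media LPN is at the top for IL34 and Em for IL1R2, and Em is at the bottom for CSF2 and IL23R.

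Genes around the families were read from lists of related ligands and receptors outside the name rule, NF-kB signalling and JAK-STAT signalling. Of 19 related ligands and receptors tested, 0 rose and 3 fell (with the block 1 and 5), where 6.97% of all genes were called without the block. With the block 31.6% of the list was called, beside 19.9% of all genes. At an unadjusted p under 0.05 the share was 31.6%, beside 27.3% of all genes. MIF (ENSSSCG00000010067), a cytokine that binds CXCR2, CXCR4 and CD74, measured 176, 180, 156 and 183 CPM in complete medium and 98.7, 87.6, 87.8 and 95.1 CPM in differentiation medium. The media did not overlap, and the log2 fold change was -0.91 ± 0.10 (SE, edgeR adjusted p = 0.00735). A second identifier with that symbol (ENSSSCG00000041866) did not pass, at 0.29 ± 0.31 (SE, edgeR adjusted p = 0.575). CD70, a TNF superfamily ligand, fell from 11.6, 29.0, 14.3 and 22.4 CPM to 9.34, 5.55, 5.25 and 5.65 CPM (log2 fold change -1.58 ± 0.35, SE, edgeR adjusted p = 0.0386).

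Of 47 genes of NF-kB and Toll or IL-1 signalling, none passed in edgeR without the block (14 at an unadjusted p under 0.05, and 7 by DESeq2), and 7 were higher and 4 lower with it. These were 29.8% beside 27.3% of all genes at an unadjusted p and 23.4% beside 19.9% with the block, near the background. Of 24 genes of JAK-STAT signalling, 1 rose and 0 fell, and with the block 3 were higher and 2 lower. These were 20.8% with the block, beside 19.9% of all genes, and 25.0% at an unadjusted p under 0.05, beside 27.3%. The gene that rose without the block was STAT2, a mediator of interferon signalling, at 38.2, 45.0, 47.0 and 48.2 CPM against 96.4, 64.0, 68.9 and 92.5 CPM (log2 fold change 0.85 ± 0.17, SE, edgeR adjusted p = 0.0293). In differentiation medium TLR2, a receptor for bacterial lipoproteins that feeds NF-kB, was higher in every line and passed with the block (edgeR adjusted p = 0.0127, and 0.107 without it), at 2.62, 0.487, 0.409 and 0.791 CPM against 9.21, 3.65, 2.58 and 3.41 CPM. IRAK3, an inhibitor of that pathway, was lower in every line and passed with the block (adjusted p = 0.0112, and 0.0951 without it), at 41.5, 46.3, 60.4 and 21.3 CPM against 22.6, 17.6, 24.8 and 9.92 CPM. TLR2, IRAK3 and ACKR3 were chosen after their values were seen.

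The 5 member calls kept their direction but not their threshold when single libraries were left out. Adjusted p ranged from 0.0401 to 0.0947 for IL22RA1, from 0.0177 to 0.0816 for TNFSF9, from 0.0387 to 0.108 for IL1A, from 0.0465 to 0.0923 for TNFRSF12A and from 0.0268 to 0.114 for TNFRSF6B (edgeR). No member passed without Em, LPN or EPN1 in complete medium or without LPN or EPN1 in differentiation medium, 1 passed when Em and 4 when EPN2 in differentiation medium was left out, and 6 passed without EPN2 in complete medium.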

How the data were processed

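Poly(A) RNA of 8 libraries (4 lines in 2 media) was sequenced paired-end. The authors deposited expected counts from salmon, run through nf-core on a custom annotation, as 56060 rows of 1 table. 78.6% of the values above 0 were whole, and whether they were scaled by length is not stated for the table. Here 8 reporter rows (0.00142% of counts) were left out, suffixed rows were summed per gene (rows with the suffix -ext held 2.58% of counts) and values were rounded. Symbols are those of the table: 121 of 136 members had an entry in the gene name table and 117 the same symbol, and IL18BP, CCR2, IL10RB (ENSSSCG00000036556) and TNFRSF6B had another there. Lines were read from the column names, and the numbering of the sample titles was not matched to columns.

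Media were compared by edgeR 4.0.16 in R 4.3.3 (filterByExpr, TMM, quasi-likelihood F test) on 14475 genes, and lines by the same test with medium and line as terms, with Benjamini-Hochberg adjustment over all genes tested. SE is the log2 fold change divided by the root of F. Called means an adjusted p under 0.05. Alternatives were the line as block, DESeq2 1.42.0 (the tool of the study), RLE factors, no filter, other sums of rows and leaving out libraries, with both EPN2 libraries left out chosen after seeing the data. Tests were tried on simulated counts. The line came to be used as block because deviations from the group means correlated at 0.400 to 0.657 within lines and -0.479 to 0.242 between lines, and the same line was grown in both media.

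Named members were those past the threshold, the 8 per direction with the smallest adjusted p under the block, the 10 with the highest mean CPM and the 6 first for line, and up to 10 pathway genes past the threshold. Members and lists were chosen with earlier results of these data known. P-values between media without the block are set against the spread between the 4 lines within a medium. With the line as block, and in the test for line, the error is what medium and line leave unexplained. That error also holds any medium effect that differs between lines, since no line had a replicate within a medium. Intervals cover counting error only. Some results that the naming rule would give are not reported here.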

Additional observations from a re-analysis of the deposited data

Results flagged for a closer look

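The members named by rule and some of those chosen later were examined in each medium, as 70 groups of 4 libraries. CXCL2, CXCL12, CSF1, TNFSF12, CXCR4 and IL10RB were among the described genes not examined. Of the 70 groups, 4 held a library whose gap to the nearest of the others exceeded Dixon's 95% critical value for 4 samples, as a share of the range. Chance alone flags about 5% of such groups. In complete medium, CXCL8 was 497.7 CPM in Em and 32.5 to 41.2 CPM in the other lines, and LIF was 36.3 CPM in LPN and 12.6 to 14.5 CPM in the other lines. In differentiation medium, IL1R1 was 124.3 CPM in Em and 47.6 to 52.4 CPM in the other lines, and IL17RA was 60.1 CPM in EPN2 and 38.7 to 41.7 CPM in the other lines. Each is 1 library, so none of these values has a replicate within its line and medium.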

How the results depend on the processing

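The counts of calls moved with the processing more than the fold changes did. Between media, all genes called went from 1009 to 506 without the filter, 3026 by DESeq2 (18.5% of genes given an adjusted p), 2884 with the line as block and 5597 by DESeq2 with that block (33.8%), and from 70 to 1199 with 1 library left out. Members called went from 5 to 3, 14, 14 and 30 in the same order, and from 0 to 6 with 1 library left out. Pathway genes called went from 4 to 16 by DESeq2, 22 with the block and 39 by DESeq2 with the block, and from 1 to 5 with 1 library left out. Between lines, all genes called went from 744 to 1163 without the filter and 4376 by DESeq2, and from 24 to 969 with 1 library left out, and members from 6 to 12 and 29, and from 0 to 9. The cause of these shifts was not tested, beyond the fewer libraries in a fit. RLE factors, sums by symbol and leaving out the -ext rows kept each of these counts within 1.5 times. The 5 members called were among those called with the block and by DESeq2.

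Fits with 1 library left out were followed for the members named by rule, the pathway genes called and some of the genes chosen later. CXCL2 and CSF1 were not among them. Of the genes followed, the log2 fold change between media changed sign for 6 when 1 library was left out, all far from the threshold. Over these fits CXCL8 ranged from -1.69 to 0.83 (positive without Em in complete medium), IL1R1 from -0.98 to 0.29 (likewise), IL34 from -0.64 to 0.84 (-0.64 without LPN in differentiation medium, -0.19 and -0.15 without EPN2 or Em in complete medium), IL1R2 from -0.20 to 2.38 and CCL28 from -0.16 to 2.50 (negative without Em in differentiation medium), and CSF2 from -0.89 to 0.43 (positive without EPN2 in complete medium). CSF2 was 0.018 with both EPN2 libraries left out. With 4 libraries per medium and 1 per line and medium, differences between single libraries have no replicate check, and genes under 3 counts cannot be told from absence at this depth.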
